A study of Mus musculus with 8 samples.

Results

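The 9 genes described here are those of the major histocompatibility complex (MHC) class II antigen presentation pathway, chosen by gene symbol from the 22869 genes of a deposited RNA-seq count table of mouse inguinal white adipose tissue, the subcutaneous fat of the groin. They are H2-Aa, H2-Ab1 and H2-Eb1, the classical class II chains, Cd74, the invariant chain, H2-DMa, H2-DMb1, H2-Oa and H2-Ob, the chains of the peptide editors DM and DO, and Ciita, the class II coactivator. All 9 were found in the table and all 9 passed the filter on low counts. The study compared 4 libraries from mice carrying a Fabp4-Ebf2 transgene with 4 libraries from wild-type (WT) mice, and it asked what raised Ebf2 does in white fat, since EBF2 is a transcription factor of brown and beige adipocytes. Mice of both genotypes were of mixed background, about 6 weeks old, fed normal chow and kept at room temperature, and per the labels the lymph nodes of the depot were taken out before RNA extraction. Regulatory sequence of Fabp4 (also called Ap2, the name used in the file headers) is active in adipocytes and also in macrophages, and reads of the transgene and of endogenous Ebf2 are counted together. Whether the 4 libraries of a genotype stem from 4 animals is not stated in the labels, and p-values therefore reflect the spread between libraries alone.

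Class II molecules are pairs of an alpha and a beta chain that show peptides from endosomes to CD4+ T cells. They are built in the endoplasmic reticulum around the invariant chain, a fragment of which stays in the peptide groove until DM exchanges it for a peptide, and DO, made mainly in B cells, holds DM back. B cells, dendritic cells and many macrophages carry class II constantly, and interferon gamma can induce it in other cells through CIITA, which binds a complex of RFX factors, CREB and NF-Y assembled on the X and Y boxes of class II promoters. Fat holds resident macrophages, dendritic cells and lymphocytes, and the inguinal depot surrounds lymph nodes. In bulk tissue, fewer cells of a type and less RNA per cell cannot be told apart.

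Because class II genes are known for this shared promoter layout, their upstream sequences are shown first. Whether the layout bears on the levels in these libraries was not tested. RefSeq promoter windows on build GRCm38.p6, each 250 bases before to 50 after a start, covered 6 of the 9 members (not H2-Ab1, Cd74 and Ciita). X-box letters CNNGNAAC followed on the strand of the gene by Y-box letters ATTGG after 10 to 40 bases were found for 5 of these 6. Neither of the windows of H2-DMa held the pair. The bases before their starts end at 34122831 and 34125517, inside the annotated gene (34119693 to 34139101). Whether either is the start of the counted transcript was not checked, so its own promoter may not have been searched. The motif letters were chosen after reading these promoters, so the count describes them and tests nothing. Of all 32851 windows, 0.654% held the pair on the strand of the gene and 1.3% on either strand, while 39.1% held the X letters and 37.4% the Y letters on either strand. The 150 bases before each start are given 5′ to 3′ on the strand of the gene, with X and Y letters in capitals, for H2-Aa (chr17:34287824-34287973, minus strand), H2-Eb1 (chr17:34305717-34305866, plus strand), H2-DMb1 (chr17:34153041-34153190, plus strand), H2-Oa (chr17:34092229-34092378, plus strand) and H2-Ob (chr17:34238755-34238904, plus strand).
H2-Aa: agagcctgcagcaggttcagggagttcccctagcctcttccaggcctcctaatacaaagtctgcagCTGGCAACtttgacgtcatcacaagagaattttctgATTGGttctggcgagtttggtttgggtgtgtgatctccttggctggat
H2-Eb1: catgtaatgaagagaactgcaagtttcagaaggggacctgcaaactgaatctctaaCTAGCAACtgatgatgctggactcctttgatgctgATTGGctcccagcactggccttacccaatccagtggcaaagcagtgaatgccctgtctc
H2-DMb1: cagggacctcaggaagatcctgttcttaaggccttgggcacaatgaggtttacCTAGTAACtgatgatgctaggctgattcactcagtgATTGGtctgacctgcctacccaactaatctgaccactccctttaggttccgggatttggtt
H2-Oa: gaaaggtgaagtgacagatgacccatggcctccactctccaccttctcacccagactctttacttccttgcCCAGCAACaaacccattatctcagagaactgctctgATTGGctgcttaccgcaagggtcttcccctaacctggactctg
H2-Ob: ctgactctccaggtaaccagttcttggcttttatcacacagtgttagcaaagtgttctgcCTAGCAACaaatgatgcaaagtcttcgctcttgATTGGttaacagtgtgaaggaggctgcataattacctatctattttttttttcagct
The gap between the X and Y letters was 28 bases for H2-Aa, H2-DMb1 and H2-Oa, 27 for H2-Eb1 and 25 for H2-Ob, and the X letters began 79 to 97 bases before the start. In each of the 5 sequences shown, the Y letters followed the X letters at a similar distance close to the start. Among the other class II chains, H2-Eb2 held the pair with a gap of 27 bases. The window of H2-DMb2 held none by these exact letters. It has CTATTAAC where H2-DMb1 has CTAGTAAC, and the Y letters follow. The annotation places 7 members in the MHC region of chromosome 17 and Ciita and Cd74 on other chromosomes.

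Library depth was 21.74, 23.17, 18.4 and 24.65 M reads for Fabp4-Ebf2 and 19.29, 24.08, 22.14 and 16.89 M for WT. Levels are given as CPM, the read count of a gene as a share of its library after scaling by TMM (the trimmed mean method of edgeR). Before that scaling, 3 reads were worth 0.122 to 0.178 CPM. Ebf2 stood at 499, 231, 575 and 447 CPM in Fabp4-Ebf2 and at 37.0, 14.9, 30.3 and 29.4 CPM in WT, which fits the labels of all 8 libraries. Across all genes, the quasi-likelihood test of edgeR, adjusted by Benjamini-Hochberg at 0.05, called 420 genes higher and 93 lower in Fabp4-Ebf2 of 15002 tested. Adipocyte markers were abundant (summed over 7 genes, 13318 to 20070 CPM in Fabp4-Ebf2 and 16330 to 23332 CPM in WT). The sum of 11 skeletal muscle markers was lower in Fabp4-Ebf2, at 24.5 to 359 CPM, than in WT, at 392 to 1189 CPM. Of the 11 genes, 6 were lower without overlap, where 4.07% of all tested genes were. Only 1 was called lower (Casq1, edgeR adjusted p = 0.0474), where 0.62% of all tested genes were. The part of muscle transcripts in the results was not tested.

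Class II transcripts were abundant in this fat. The 9 members together took 0.371 to 0.896% of the reads of a library. Per transcript length, as CPM per kilobase of the counted transcript, Cd74 was the highest member, at 1378 ± 251 in Fabp4-Ebf2 and 1727 ± 627 in WT (SD, n = 4 each). H2-Aa followed at 781 ± 76.7 CPM per kilobase in Fabp4-Ebf2 and 958 ± 273 in WT, H2-Ab1 at 524 ± 47.7 in Fabp4-Ebf2 and 647 ± 149 in WT, and H2-Eb1 at 455 ± 43.7 in Fabp4-Ebf2 and 561 ± 173 in WT.

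The remaining members lay far below these 4. H2-Ob stood at 56.9 ± 7.75 CPM per kilobase in Fabp4-Ebf2 and 79.5 ± 16.0 in WT, above its partner H2-Oa at 28.7 ± 4.93 in Fabp4-Ebf2 and 41.9 ± 16.4 in WT. Between them lay H2-DMb1, at 45.9 ± 5.66 in Fabp4-Ebf2 and 53.1 ± 14.3 in WT, and H2-DMa, at 36.2 ± 5.58 in Fabp4-Ebf2 and 46.6 ± 14.4 in WT. With the 6007 bases of its counted transcript, Ciita was the lowest at 19.9 ± 3.87 CPM per kilobase in Fabp4-Ebf2 and 22.6 ± 2.58 in WT. Within a library, the order of the 9 members by these lengths held in all 8: Cd74, H2-Aa, H2-Ab1, H2-Eb1, H2-Ob, H2-DMb1, H2-DMa, H2-Oa and Ciita. The last place of Ciita depends on the length used. A listed Ciita transcript of 3953 bases held 2118 reads in Fabp4-Ebf2 replicate 1, against 2144 for the counted transcript. With that shorter length Ciita would stand higher, and its place below H2-Oa is not settled. Across Fabp4-Ebf2 libraries the ranges of each pair of neighbours among H2-Ob, H2-DMb1, H2-DMa, H2-Oa and Ciita overlapped (46.8 to 63.7, 38.5 to 52.0, 28.4 to 41.7, 23.8 to 34.1 and 16.8 to 24.8 CPM per kilobase, in that order). H2-DMb1 has a near-identical neighbour, H2-DMb2, and the counting is not stated to be unique or to use strand, so its level is uncertain. The same holds for reads that H2-Oa, H2-Eb1 and H2-DMa may share with transcripts annotated across them.

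The genotype comparison of the members gave lower means in Fabp4-Ebf2 for all 9, and none passed the test. Their log2 fold changes ran from -0.54 to -0.18 with a median of -0.30, against a median of -0.01 over all tested genes, of which 51.6% were negative. None of the 9 was called in either direction by edgeR, where 3.42% of all tested genes were called and 0.62% were called lower. An unadjusted p under 0.05 was reached by H2-Oa and H2-Ob alone, and 7.27% of all tested genes reached it in the lower direction. In the authors' deposited table the 9 log2 fold changes ran from -0.57 for H2-Oa to -0.17 for Ciita and none had an FDR under 0.05, where 1.21% of its genes were lower at that threshold.

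**Figure D1:**
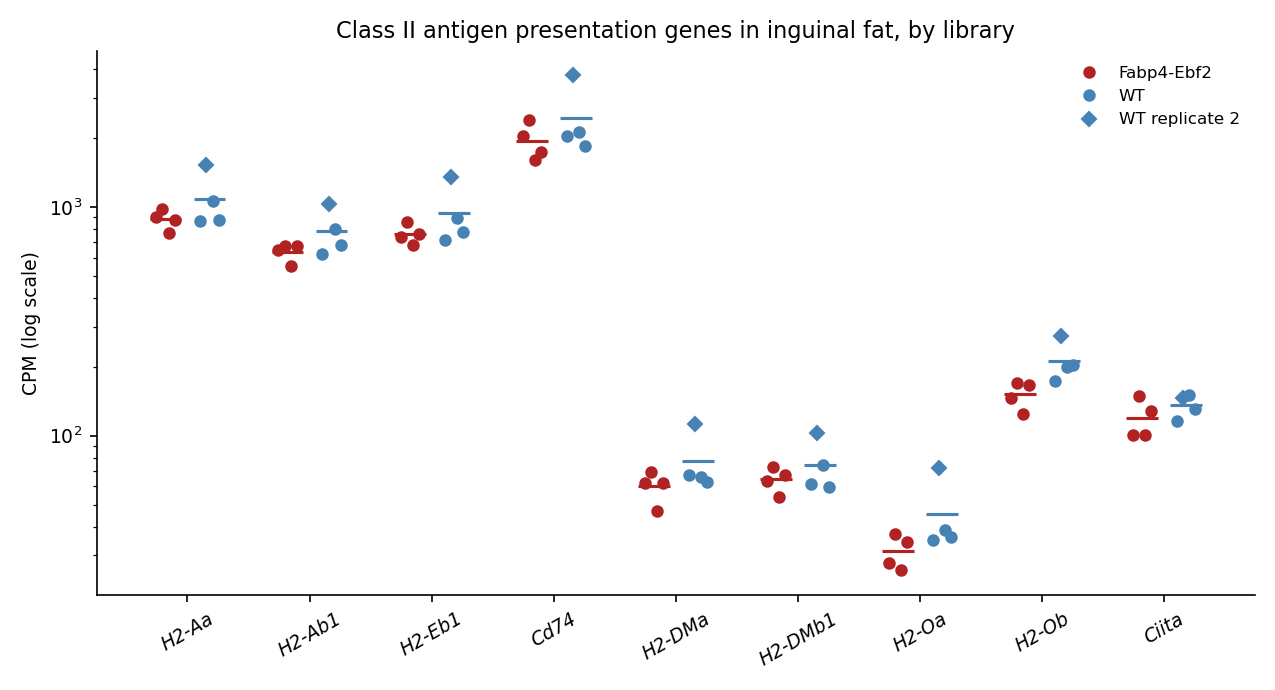
Level of each class II gene in CPM (log scale) in 4 Fabp4-Ebf2 libraries (red, left of each pair) and 4 WT libraries (blue, right), with the group mean as a line. WT replicate 2, drawn as a diamond, is the highest library for 8 of the 9 genes, at 3750 CPM for Cd74.

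Among the classical chains, H2-Aa, the alpha chain of the I-A molecule, stood at 903, 976, 767 and 880 CPM in Fabp4-Ebf2 and at 864, 1524, 1060 and 877 CPM in WT. WT replicate 2 was far above the other libraries and the genotypes overlapped. The log2 fold change was -0.29 (SE 0.19, edgeR adjusted p = 0.459), a ratio of 0.815 with a 95% interval of 0.603 to 1.10. The interval holds both equality and a level of 0.603 of WT.

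H2-Ab1, the beta chain of I-A, stood at 648, 671, 550 and 672 CPM in Fabp4-Ebf2 and at 624, 1031, 803 and 679 CPM in WT. Replicates 2 and 3 of WT were the highest, while WT replicate 1 lay inside the Fabp4-Ebf2 range. Its ratio was 0.811 (95% interval 0.624 to 1.05, log2 fold change -0.30, SE 0.17, edgeR adjusted p = 0.383). H2-Eb1, the beta chain of the I-E molecule, stood at 740, 855, 678 and 762 CPM in Fabp4-Ebf2 and at 716, 1353, 898 and 777 CPM in WT. The pattern over the libraries was that of H2-Aa, with WT replicate 2 on its own at the top. Its ratio was 0.811 (95% interval 0.593 to 1.11, edgeR adjusted p = 0.463).

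Cd74, whose product holds new class II molecules until they reach the endosome, stood at 2044, 2394, 1595 and 1738 CPM in Fabp4-Ebf2 and at 2037, 3750, 2113 and 1839 CPM in WT. Apart from WT replicate 2, every WT library lay within the Fabp4-Ebf2 range. The ratio was 0.798 with the widest interval of the 9 on the log scale (0.541 to 1.18, log2 fold change -0.33, SE 0.25, edgeR adjusted p = 0.529).

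The DM chains, which load peptides onto class II, gave the same picture. H2-DMa stood at 62.0, 69.1, 47.1 and 61.9 CPM in Fabp4-Ebf2 and at 67.3, 113, 66.1 and 62.6 CPM in WT. H2-DMb1 stood at 63.7, 73.1, 54.1 and 67.0 CPM in Fabp4-Ebf2 and at 61.5, 103, 74.1 and 59.5 CPM in WT. For both chains the genotypes overlapped and WT replicate 2 was the highest library by a wide margin. Their ratios were 0.777 for H2-DMa (95% interval 0.572 to 1.06, edgeR adjusted p = 0.375) and 0.865 for H2-DMb1 (0.659 to 1.13, edgeR adjusted p = 0.559).

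The DO chains, the inhibitors of DM, had the largest differences of the set. H2-Ob stood at 146, 170, 125 and 166 CPM in Fabp4-Ebf2 and at 173, 273, 199 and 204 CPM in WT. It was the only member whose genotypes did not overlap, although the highest Fabp4-Ebf2 library and the lowest WT library nearly met, and 4.07% of all tested genes were lower without overlap. The log2 fold change of H2-Ob was -0.48 (SE 0.15), a ratio of 0.716 (95% interval 0.564 to 0.909, edgeR adjusted p = 0.134). With DESeq2 in place of edgeR it passed (adjusted p = 0.0439), where 2.57% of the genes were called lower, so the call of H2-Ob depends on the tool.

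H2-Oa stood at 27.7, 37.1, 25.9 and 34.4 CPM in Fabp4-Ebf2 and at 35.1, 72.2, 38.8 and 36.2 CPM in WT. WT replicate 2 was far above every other library, and the highest Fabp4-Ebf2 library lay among the other WT libraries. Its log2 fold change was -0.54 (SE 0.24), a ratio of 0.686 (95% interval 0.474 to 0.993, edgeR adjusted p = 0.277).

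Ciita, the coactivator that class II promoters depend on, stood at 101, 149, 101 and 128 CPM in Fabp4-Ebf2 and at 116, 146, 151 and 131 CPM in WT. It was the only member that was not highest in WT replicate 2, and Fabp4-Ebf2 replicate 2 reached the level of the highest WT libraries. The ratio was 0.881 with the interval 0.705 to 1.10 (log2 fold change -0.18, SE 0.14, edgeR adjusted p = 0.536), so a loss of Ciita beyond 0.705 of WT lay outside it.

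WT replicate 2 carried much of the difference. It was the highest library for 8 of the 9 members, as it was for 25.5% of all tested genes, and Fabp4-Ebf2 replicate 3 was the lowest library for all 9, as for 16.3% of all tested genes. Without WT replicate 2 the median log2 fold change of the members was -0.12 in place of -0.30. Cd74 then had -0.04, H2-DMb1 -0.02, H2-Eb1 -0.07 and H2-Aa -0.09. H2-DMa had -0.12, H2-Ab1 and Ciita -0.15, and the DO chains kept the largest values at -0.23 for H2-Oa and -0.34 for H2-Ob. All 9 remained negative in each of the 15 alternative fits, and Ciita was the member that moved least without this library.

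**Figure D2:**
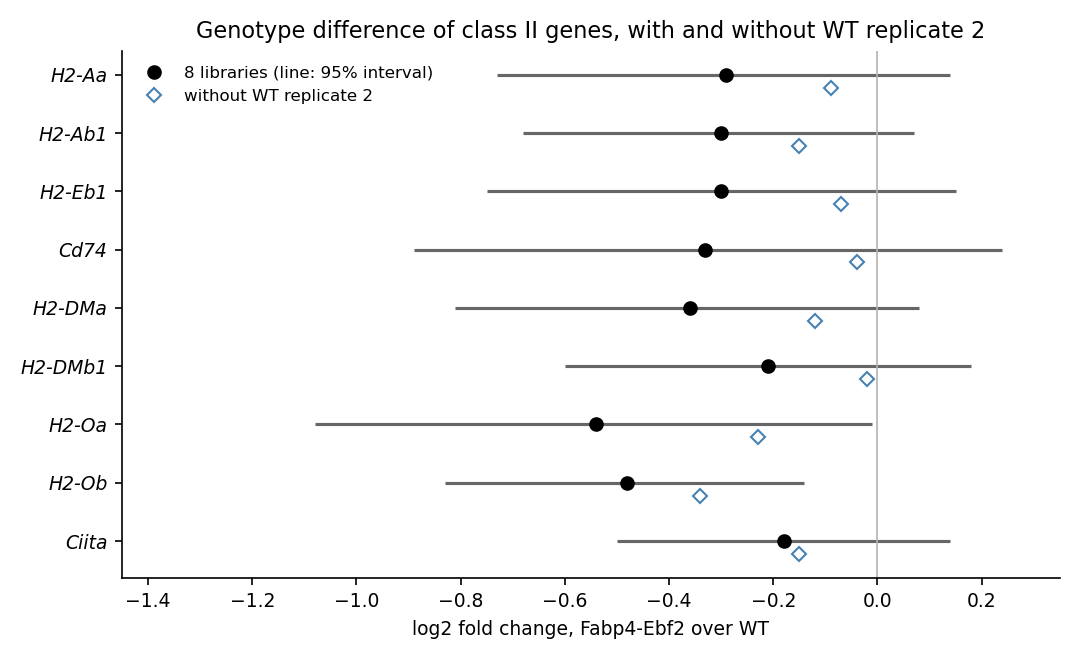
Log2 fold change of each class II gene, Fabp4-Ebf2 over WT, from edgeR with all 8 libraries (black point, with its 95% interval as a line) and without WT replicate 2 (open diamond). H2-Ob is at -0.48 with all libraries and -0.34 without, and Cd74 at -0.33 and -0.04.

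Ratios among the classical chains and Cd74 were similar in both genotypes. Within a library, the ratio of H2-Aa to H2-Ab1 per length, the pair that forms I-A, was 1.41 to 1.56 in Fabp4-Ebf2 and 1.39 to 1.59 in WT. Cd74 to H2-Aa was 1.58 to 1.96 in Fabp4-Ebf2 and 1.60 to 1.97 in WT. H2-Eb1 to H2-Ab1, the beta chains of different molecules, was 0.823 to 0.924 in Fabp4-Ebf2 and 0.812 to 0.954 in WT. These ratios covered almost the same range in both genotypes. WT replicate 2 gave the highest value of each, a little above the highest Fabp4-Ebf2 library. The partner chains of DM (H2-DMa to H2-DMb1) gave 0.738 to 0.824 in Fabp4-Ebf2 and 0.926, 0.928, 0.756 and 0.891 in WT. Only WT replicate 3 lay in the Fabp4-Ebf2 range. The partner chains of DO (H2-Ob to H2-Oa) gave 1.87 to 2.16 in Fabp4-Ebf2 and 1.54 to 2.29 in WT.

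The balance of DM against its inhibitor DO was described by a pair of ratios per length. H2-DMa to H2-Oa, the alpha chains, was 1.47, 1.22, 1.20 and 1.18 in Fabp4-Ebf2 and 1.26, 1.03, 1.12 and 1.13 in WT. H2-DMb1 to H2-Ob, the beta chains, was 0.826, 0.817, 0.823 and 0.767 in Fabp4-Ebf2 and 0.675, 0.717, 0.710 and 0.556 in WT. Only the beta chains gave a ratio without overlap, 1 of 9 ratios computed. The ratio to H2-Ob was also higher without overlap in Fabp4-Ebf2 for 32.5% of the 15001 other tested genes, so this is a common result for any gene set over H2-Ob.

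**Figure D3:**
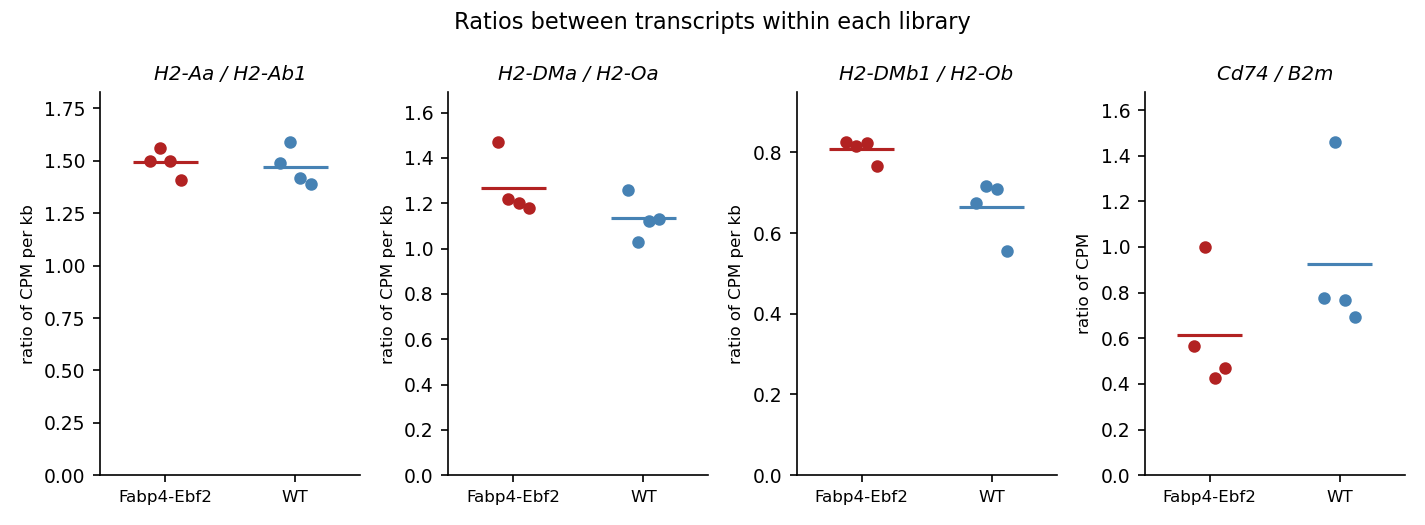
Ratios between transcripts within each library, for 4 Fabp4-Ebf2 libraries (red, left) and 4 WT libraries (blue, right), with the group mean as a line and axes from 0. H2-DMb1 over H2-Ob spans 0.767 to 0.826 in Fabp4-Ebf2 and 0.556 to 0.717 in WT, and the other 3 ratios overlap between genotypes.

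The further class II chains behaved like the members. H2-Eb2, a beta chain gene beside H2-Eb1, stood at 34.0 ± 5.20 CPM in Fabp4-Ebf2 and 42.3 ± 11.0 CPM in WT (SD, n = 4 each, log2 fold change -0.32, edgeR adjusted p = 0.402). H2-DMb2, the copy of H2-DMb1, stood at 54.7 to 88.5 CPM in Fabp4-Ebf2 and 59.5 to 134 CPM in WT (log2 fold change -0.33, edgeR adjusted p = 0.544), and its log2 fold change was 0.01 without WT replicate 2. The alpha chain of I-E, listed as H2-Ea-ps, had 2, 7, 2 and 2 reads in Fabp4-Ebf2 and 0, 13, 1 and 0 in WT and did not pass the filter on low counts, although its partner H2-Eb1 had 11745 or more in each library. In the b haplotype of C57BL/6 mice the I-E alpha gene is known to lack its promoter, and the haplotypes of these mixed-background mice were not analysed here.

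The factors that bind class II promoters showed no call among 7 tested genes, with a median log2 fold change of 0.05. Rfxank, an RFX subunit, stood at 45.1, 44.3, 55.0 and 44.0 CPM in Fabp4-Ebf2 and at 33.1, 47.8, 35.3 and 34.1 CPM in WT. Only WT replicate 2 reached the Fabp4-Ebf2 range. Its log2 fold change was 0.32 (SE 0.13, edgeR adjusted p = 0.247), and without WT replicate 2 it was 0.46 and passed (edgeR adjusted p = 0.0387). In that fit 338 genes were called higher, and Rfxank passed in no other alternative. The other RFX subunits, Rfx5 and Rfxap, each had a log2 fold change of -0.14 (edgeR adjusted p = 0.501 and 0.510).

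The 11 tested genes of class II processing and turnover held no call either, with a median log2 fold change of -0.04. Ctss, the cathepsin that trims the invariant chain in antigen-presenting cells, stood at 278, 428, 228 and 403 CPM in Fabp4-Ebf2 and at 302, 497, 282 and 250 CPM in WT (log2 fold change 0.01). The related lysosomal protease Ctsl had a log2 fold change of -0.33 and Ctsd 0.33 (edgeR adjusted p = 0.310 and 0.289).

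Of 8 tested costimulators and checkpoint ligands, which antigen-presenting cells show beside class II, 1 rose, 0 fell and 7 did not pass, with a median log2 fold change of -0.21. The gene that rose was Cd274, which encodes the inhibitory ligand PD-L1. It stood at 72.1, 74.8, 76.8 and 87.8 CPM in Fabp4-Ebf2 and at 47.4, 50.2, 60.1 and 57.9 CPM in WT, without overlap, where 7.35% of all tested genes were higher without overlap and 2.8% were called higher. Its log2 fold change was 0.53 (SE 0.10, edgeR adjusted p = 0.0243), and it did not pass when any 1 of 6 of the 8 libraries was left out (adjusted p up to 0.0675). Cd40 and Icosl, which act in B cell help, had log2 fold changes of -0.29 and -0.24 (edgeR adjusted p = 0.435 and 0.353).

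The interferon gamma axis, the main inducer of Ciita outside professional antigen-presenting cells, held 1 called gene of 12 tested, with a median log2 fold change of 0.04. Cxcl10, a chemokine induced by interferons, stood at 54.4, 27.5, 89.1 and 128 CPM in Fabp4-Ebf2 and at 12.2, 22.2, 12.6 and 23.8 CPM in WT. Every Fabp4-Ebf2 library was above every WT library, at log2 fold change 2.08 (SE 0.44, edgeR adjusted p = 0.0358), and the call was lost by limma-voom (adjusted p = 0.0691) and when any 1 of 7 of the 8 libraries was left out (adjusted p up to 0.103).

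Cxcl9, whose induction is a marker of interferon gamma, stood at 120, 63.1, 131 and 134 CPM in Fabp4-Ebf2 and at 67.4, 76.8, 78.7 and 66.1 CPM in WT. Fabp4-Ebf2 replicate 2 was the lowest of all libraries while the other 3 were the highest. Its log2 fold change was 0.63 (edgeR adjusted p = 0.150) and passed without Fabp4-Ebf2 replicate 2 (0.82, adjusted p = 0.00338). Ifng itself had under 1 CPM in every library, with a log2 fold change of 0.21.

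Class I genes lie among the class II genes on chromosome 17, and most had a log2 fold change of the other sign. Psmb8, Psmb9, Tap1 and Tap2, the immunoproteasome subunits and peptide transporter encoded between the H2-DM genes and H2-Ob, stood at 0.09, 0.20, 0.05 and 0.04 on the log2 fold change scale and were not called, while the class II genes on either side of them were negative. The difference between the class II and class I lists was not tested. Over 12 class I presentation genes 9 were positive and 3 negative, with 0 calls and a median of 0.07. B2m, the common light chain of class I, stood at 3607, 2393, 3750 and 3703 CPM in Fabp4-Ebf2 and at 2623, 2568, 2752 and 2649 CPM in WT (log2 fold change 0.34, edgeR adjusted p = 0.353). Here Fabp4-Ebf2 replicate 2 was below every WT library while the other Fabp4-Ebf2 libraries were above them. The ratio of Cd74 to B2m, which sets class II against class I within a library, was 0.567, 1.00, 0.425 and 0.469 in Fabp4-Ebf2 and 0.777, 1.46, 0.768 and 0.694 in WT. In both genotypes replicate 2 had the highest ratio, and only Fabp4-Ebf2 replicate 2 reached the WT range.

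**Figure D4:**
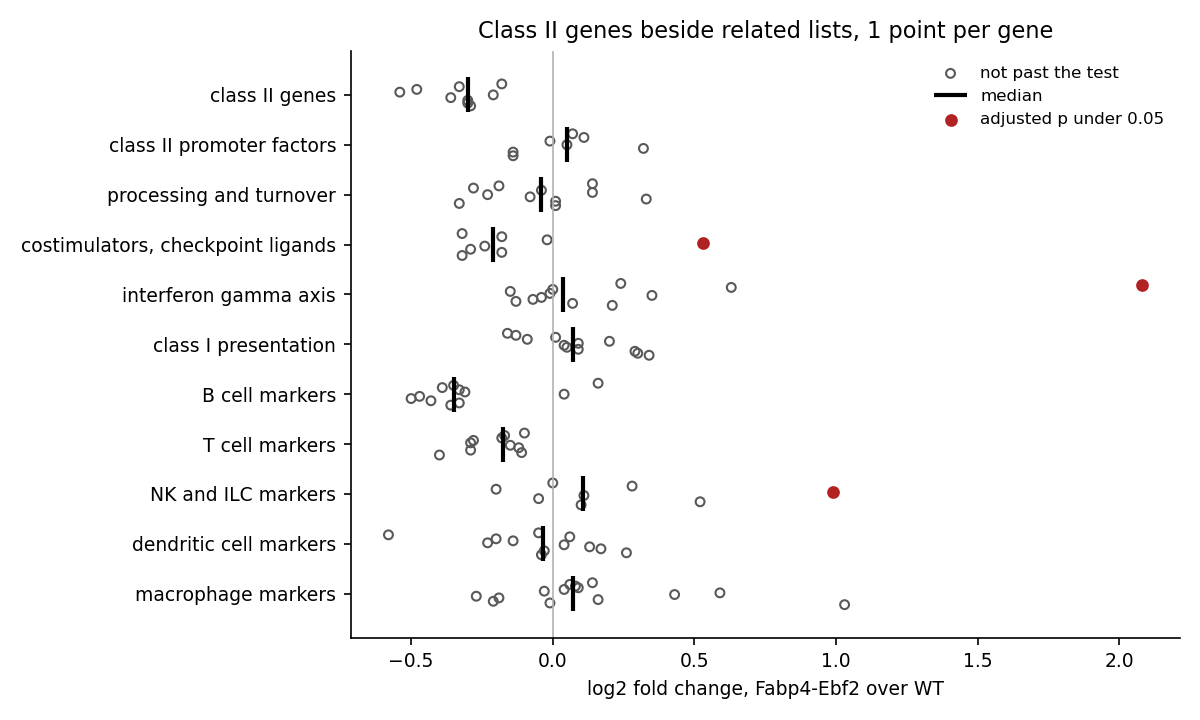
Log2 fold change, Fabp4-Ebf2 over WT, of each tested gene of the class II set and of related lists (1 point per gene, filled red where the edgeR adjusted p is under 0.05, black bar for the median). The median is -0.30 for the class II genes, -0.35 for B cell markers, 0.07 for class I presentation, and the red points are Cd274, Cxcl10 and Gzma.

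Markers of the cells that carry class II were set beside the members. Of 11 B cell markers 9 had a negative log2 fold change, with a median of -0.35 and 0 calls, and the list summed to 1082 to 1417 CPM in Fabp4-Ebf2 and 1206 to 2117 CPM in WT. None of the 11 was at 0 in all libraries. Cd79b, a subunit of the B cell receptor, stood at 147, 172, 130 and 163 CPM in Fabp4-Ebf2 and at 156, 343, 184 and 180 CPM in WT. WT replicate 2 was again the highest library, as it was for 10 of the 11 B cell markers, and without it the median of the list was -0.14. Cd79b, Cd22 and Fcer2a, found on mature B cells, had log2 fold changes of -0.50, -0.35 and -0.31 (edgeR adjusted p = 0.306, 0.397 and 0.380). The markers of the list with a positive value were Cr2 at 0.04 and Ebf1 at 0.16. Unlike the rest of the list, Ebf1 was lowest in WT replicate 2, at 39.4 CPM, and its reads may not stem from B cells alone.

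**Figure D5:**
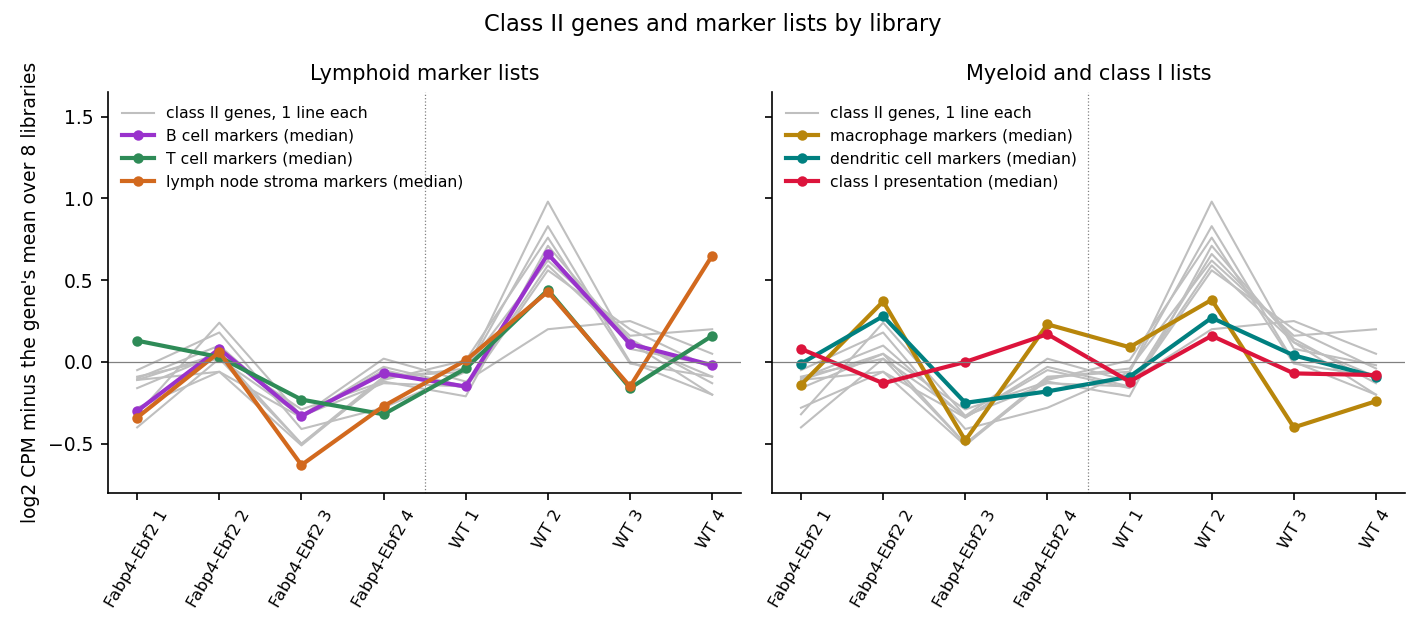
Deviation of log2 CPM from the mean of each gene over the 8 libraries, for the class II genes (grey, 1 line each) and the median of marker lists (coloured), with Fabp4-Ebf2 libraries left of the dotted line and WT libraries right of it. Lines only join the libraries, which have no order. In WT replicate 2 the medians of the class II genes and of the B cell markers are both 0.66.

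By library, the median deviation of the B cell markers from their mean was -0.30, 0.08, -0.33 and -0.07 log2 CPM in Fabp4-Ebf2 and -0.15, 0.66, 0.11 and -0.02 in WT. For the class II genes it was -0.11, 0.05, -0.34 and -0.10 log2 CPM in Fabp4-Ebf2 and -0.12, 0.66, 0.12 and -0.09 in WT. The sign was the same for both lists in all 8 libraries, as it was for the dendritic cell markers and for the costimulators and checkpoint ligands. T cell markers had a median log2 fold change of -0.18 with 0 calls of 10, and sums of 586 to 806 CPM in Fabp4-Ebf2 and 662 to 990 CPM in WT.

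Lymph node stroma genes were present in both genotypes despite the removal stated in the labels. Glycam1, a ligand made in the high endothelial venules of lymph nodes, stood at 84.7, 144, 52.2 and 88.7 CPM in Fabp4-Ebf2 and at 137, 140, 95.5 and 168 CPM in WT, while Ccl21a and Ccl19 were near 0 and below the filter. The 3 tested genes of that list had a median log2 fold change of -0.55 with 0 calls. Ccl21a has near-identical copies among which the counting could split its reads. How much of the class II level came from lymph node tissue was not tested.

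Among myeloid markers the medians lay near 0 with all libraries, and at 0.08 for dendritic cell and 0.25 for macrophage markers without WT replicate 2. Of 12 dendritic cell markers 7 were negative (median -0.04, sums of 388 to 558 CPM in Fabp4-Ebf2 and 434 to 627 CPM in WT). Of 14 macrophage markers 5 were negative (median 0.07, sums of 2053 to 3539 CPM in Fabp4-Ebf2 and 2175 to 4019 CPM in WT), with 0 calls in either list. Lyz2, a lysozyme of macrophages and neutrophils, stood at 919, 1482, 812 and 1126 CPM in Fabp4-Ebf2 and at 1245, 1967, 966 and 1070 CPM in WT. Its log2 fold change of -0.27 was the lowest of the 14 macrophage markers, of which 9 were positive. Among 8 markers of natural killer and innate lymphoid cells 1 rose and 7 did not pass, with a median log2 fold change of 0.11. Of all tested genes, 2.8% were called higher and 7.35% were higher without overlap. The gene that rose was Gzma, a granzyme of killer cells. Its level was 13.0, 12.7, 15.4 and 11.6 CPM in Fabp4-Ebf2 and 7.93, 7.05, 5.81 and 5.65 CPM in WT, without overlap (log2 fold change 0.99, SE 0.15, edgeR adjusted p = 0.0116).

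The genes most like the classical chains and Cd74 were sought over the 8 libraries, by Pearson r of log2 CPM with the mean log2 CPM of H2-Aa, H2-Ab1, H2-Eb1 and Cd74, among 14993 other tested genes. The 8 nearest were 5031414D18Rik (r = 0.995), Mir5107 (0.987), Napsa (0.983), BC017643 (0.983), Sri (0.982), Pbk (0.978), Fam105b (0.978) and Rmnd5b (0.977). These values are descriptions, with no test, and the points share WT replicate 2. Without it the r values were 0.978, 0.930, 0.920, 0.918, 0.986, 0.913, 0.885 and 0.879 for the 8 genes as listed. Mir5107 lies inside Cd74 in the RefSeq annotation and so can share its reads. Sri, which encodes the calcium-binding protein sorcin, held its r without that library.

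On the same measure the other members gave r = 0.98 for H2-DMb1, 0.96 for H2-DMa, 0.95 for H2-Oa, 0.87 for H2-Ob and 0.65 for Ciita. The B cell receptor subunit gene Cd79b gave 0.97, Lyz2 0.82, Itgax 0.68, H2-K1 -0.42 and Ebf2 -0.64. Without WT replicate 2 these were 0.82, 0.47, 0.56, -0.37 and -0.46 in the same order. Single genes do not stand for a cell type here, and the source of the class II reads was not tested. With all libraries Ciita, the coactivator, was the member least like the chains it acts on. Without WT replicate 2 it gave 0.82, and H2-Ob (0.70) and H2-Oa (0.77) were then below it.

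Transcript forms could be read in part. Cd74 has a longer transcript of 1410 bases and a shorter one of 1224 bases, and the longer encodes an invariant chain with an added thyroglobulin domain. Reads counted for the longer form alone made up 1.37, 1.54, 1.56 and 1.57% of the Cd74 reads in Fabp4-Ebf2 and 1.48, 1.48, 1.56 and 1.71% in WT. This percentage was the same in the genotypes within the spread between libraries, WT replicate 2 included. It is not the share of the longer form, because reads on sequence common to both forms do not tell them apart. The level of Cd74 per kilobase used 1410 bases and would be higher with 1224. The 3 listed transcripts of Ciita differed by few reads (2144, 2136 and 2118 in Fabp4-Ebf2 replicate 1), so its forms were not separated, and its level per kilobase depends on which of the lengths is used.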

How the data were processed

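Polyadenylated RNA of 4 Fabp4-Ebf2 and 4 WT libraries was prepared with TRIzol, PureLink and TruSeq kits, per the labels. The authors deposited whole-number read counts of 28644 RefSeq transcripts, against mm9 per the submitters' processing notes. Not given in the sources used here are the aligner, the counting program and whether strand was used. Per the file headers, the table also held the authors' log2 fold change from edgeR. The authors' FDR, an adjusted p-value, stood beside it per the file headers. A further 8 deposited per-sample columns were not used.

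Each gene was represented by the transcript the authors marked as best (21967 genes) or by that with most reads (902). Genes were tested with edgeR 4.0.16 in R 4.3.3 (TMM factors 0.941 to 1.07, filterByExpr, glmQLFit and glmQLFTest, genotype as the only term, Benjamini-Hochberg adjustment at 0.05), with 15002 genes tested and a biological coefficient of variation of 18.7%. Intervals are 95% intervals of the fitted fold change. Log2 CPM used a prior count of 2, and CPM per kilobase used the length of the GENCODE M21 transcript (GRCm38) that carries the counted RefSeq accession. Alternatives were RLE and upper-quartile factors, no filter, DESeq2 1.42.0, limma-voom (limma 3.58.1), a replicate block, the transcript with most reads, and each library left out in turn.

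The members, the gene lists and the alternatives were chosen with earlier results of these data known. Named genes were all members, the other class II chains, Ebf2, listed genes past the test or with the smallest p, the most abundant markers of a cell type, and the 8 genes most like the members. Rfxank and Cxcl9 fall under the smallest p, and Ccl19, Ctss, Ifng, Itgax and Tap1 were named after their values were seen. The sequences are RefSeq's on GRCm38.p6, which is not the build of the counts and served here only for promoters, chromosomes and neighbours. Listed genes not matched by symbol were H2-Ea (matched as H2-Ea-ps), Adgre1 (matched as Emr1) and Sppl2a. Depth was 16.89 to 24.65 M reads per library, and the spread between libraries rather than counting error sets the intervals of the members. Results for some single genes are not reported here.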

Additional observations from a re-analysis of the deposited data

Results flagged for a closer look

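Of 70 groups of 4 libraries checked over 35 named genes, 14 values had a gap to the nearest library, relative to the range of their group, above the 95% critical value of Dixon's ratio. Chance gives about 1 in 20 groups if they are independent. These groups share the same 8 libraries and many of the genes vary together, so the count of 14 is not a test against chance. Among the members these were all WT replicate 2, at 113 CPM for H2-DMa, 72.2 CPM for H2-Oa and 3750 CPM for Cd74. The same library stood apart at 343 CPM for Cd79b, 53.4 CPM for Cd40, 47.8 CPM for Rfxank and 0.504 CPM for H2-Ea-ps. Fabp4-Ebf2 replicate 2 stood apart at 2393 CPM for B2m, 0.293 CPM for H2-Ea-ps and 4.91 CPM for the muscle gene Casq1, for which WT replicate 1 also stood apart at 25.7 CPM. Fabp4-Ebf2 replicate 3 stood apart at 55.0 CPM for Rfxank and 94.9 CPM for Icosl, and Fabp4-Ebf2 replicate 1 at 20.2 CPM for Rfxap. What sets WT replicate 2 apart was not tested.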

How the results depend on the processing

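All 9 members kept a negative log2 fold change in each of the 15 alternatives, and none passed the test in 14 of them. With DESeq2, 1 member passed (H2-Ob), and 1233 genes passed in all, 848 higher and 385 lower, against 513, 420 and 93 in edgeR. The causes were not tested. With 1 library left out at a time, 116 to 918 genes passed, 88 to 662 higher and 22 to 256 lower, with 0 members in each. The most came without Fabp4-Ebf2 replicate 2 and the fewest without WT replicate 3 (116) or, for lower genes, WT replicate 4 (22). The log2 fold change of H2-DMb2 ran from -0.52 without Fabp4-Ebf2 replicate 2 to 0.01 without WT replicate 2. Same-numbered libraries of the genotypes did not deviate together throughout (correlations of -0.133, 0.331, 0.142 and 0.0574). These values cannot decide whether the numbers are a pairing, which the labels do not state. With a replicate block 598 genes and 0 members passed, and the edgeR adjusted p of H2-Ob was 0.0641 in place of 0.134. H2-Oa and H2-Ob aside, each 95% interval included equality.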
